A study of Homo sapiens with 6 samples.

Results

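Small RNA sequencing measured the mature microRNAs (miRNAs) miR-192-5p, miR-192-3p, miR-194-5p, miR-194-3p and miR-215-5p, which come from a pair of related clusters on chromosomes 11 and 1. The members were taken by name from the deposited table, and all 5 were among its 2656 mature miRNAs. The cells were KPL4, an established human breast adenocarcinoma line whose ERβ had been knocked out in every sample (ERβ is an estrogen receptor encoded by ESR2). One group held 3 libraries of cells labelled as knockout alone (S1, S2 and 3). The other held 3 libraries of knockout cells given exogenous ERβ (1, 2 and 3). No sample used here is labelled as an empty-vector control, and the labels do not say whether the knockout cells carried a vector. They also do not say whether the replicates were separate cultures or whether both groups came from the same clone. ESR2 messenger RNA is not seen by this assay. An effect of the receptor and other differences between these cells cannot be told apart, and the spread behind each p-value may be technical.

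A miRNA is cut from a hairpin precursor, one arm of which usually enters the silencing complex as the guide while the other, the passenger, is mostly degraded. Bases 2 to 8 of the guide, the seed, pair with target messenger RNAs. The miR-192 and miR-194 families are known as p53-responsive miRNAs, with targets in cell-cycle and MDM2 control, and as abundant miRNAs of gut, liver and kidney epithelium, where HNF1 factors drive them. Each cluster pairs a miR-194 hairpin with a hairpin of the miR-192/215 family.

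The mature sequences are shown 5′ to 3′ with the seed in capitals, because they decide which members can be told apart by a read. They are RefSeq sequences on GRCh38.p14, and all 5 members were matched, with miR-215-3p, the passenger of miR-215, added.
miR-192-5p: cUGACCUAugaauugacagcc
miR-215-5p: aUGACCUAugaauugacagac
miR-194-5p: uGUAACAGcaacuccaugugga
miR-192-3p: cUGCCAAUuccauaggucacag
miR-194-3p: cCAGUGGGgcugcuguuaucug
miR-215-3p: uCUGUCAUuucuuuaggccaaua
miR-192-5p and miR-215-5p had the same seed, ugaccua, and no other mature miRNA in the RefSeq table had it. Over 21 bases they shared 19 and differed, counted from the 5′ end of miR-192-5p, by C1A and C20A. The other members each had a seed found in no further entry of that table.

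MIR192 lies on chromosome 11 from 64891137 to 64891246 and MIR194-2 from 64891355 to 64891439, both on the minus strand, 108 bases apart and within an exon of the long non-coding RNA gene MIR194-2HG in GENCODE release 29 (GRCh38). MIR215 lies on chromosome 1 from 220117853 to 220117962 and MIR194-1 from 220118157 to 220118241, also on the minus strand and 194 bases apart, in an intron of IARS2, which is transcribed from the opposite strand. RefSeq also lists LOC124904515 around both hairpins. Both miR-194 hairpins are printed with miR-194-5p in capitals, to show that 1 mature sequence has 2 sources.
MIR194-1: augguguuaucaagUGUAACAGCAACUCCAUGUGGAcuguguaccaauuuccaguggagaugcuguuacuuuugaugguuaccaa
MIR194-2: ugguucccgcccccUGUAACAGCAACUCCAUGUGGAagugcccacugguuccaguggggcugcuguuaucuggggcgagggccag
Counts of miR-194-5p therefore sum both loci. miR-194-3p is annotated on MIR194-2 alone. By annotation it and both miR-192 arms belong to the chromosome 11 cluster, and miR-215 belongs to the chromosome 1 cluster. The counts of miR-192-5p and miR-215-5p may share reads, as described below.

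The libraries held between 10288413 and 14296900 counts, and 3 counts corresponded to 0.201 to 0.305 CPM (counts set to a common library size with TMM factors, which adjust for composition). Of all miRNAs, 783 were abundant enough to test. Knockout library S2 stood apart: its counts differed from those of the other knockout libraries with a chi-square per degree of freedom of 307 and 331, against 12.2 to 21.2 for every other pair within a group. Results are therefore also given without it. The epithelial markers (the miR-200 family, miR-203a-3p, miR-205-5p and miR-375-3p) were all detected and summed to 94615 to 110661 CPM in knockout libraries and 93312 to 98066 CPM with ERβ.

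In the cells with exogenous ERβ, miR-192-5p was the member that passed the test, with a rise of 16.0% (95% interval 4.82 to 28.5%). miR-194-5p, the next most abundant and encoded beside it on chromosome 11, did not pass and had an interval from -12.9 to 10.3%. miR-215-5p and the passenger arms miR-192-3p and miR-194-3p did not pass either, and their intervals were wider. Fold changes are ERβ over knockout, each ± its standard error, from 3 libraries per group. Of the 5 members, all were tested, 1 was called higher and 0 lower. Over all tested miRNAs edgeR called 23.1% at an adjusted p under 0.05 (quasi-likelihood test, Benjamini-Hochberg), 9.83% higher and 13.3% lower, so 1 call among 5 members is close to the background. With upper-quartile factors the split over all miRNAs was 123 higher and 70 lower, and with library totals 146 and 61, in place of 77 and 104. The median log2 fold change was 0.09 for the members and -0.01 for all tested miRNAs.

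miR-192-5p, the guide strand of MIR192, was the most abundant member. It measured 1156 CPM in knockout library S1, 1111 in S2 and 1122 in library 3, and 1287, 1329 and 1318 CPM in ERβ libraries 1, 2 and 3. Every ERβ library lay above every knockout library, as was so in either direction for 39.8% of all tested miRNAs. The means were 1129.85 ± 23.5 and 1311 ± 21.3 CPM (SD, n = 3 per group), with a log2 fold change of 0.21 ± 0.07 (adjusted p = 0.0418 in edgeR). Of the 181 miRNAs called, 0 had a smaller change than miR-192-5p and their median absolute log2 fold change was 0.70. By p it stood in place 168. The SD was 2.08% of the mean in knockout cells and 1.62% with ERβ, so this small difference exceeded the spread between libraries.

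The call for miR-192-5p lay close to the threshold. Without knockout library S2, the one that stood apart, the log2 fold change was 0.20 with an adjusted p of 7.73e-04 by the same edgeR test. Without any other single library the call was lost, with adjusted p = 0.0843 without knockout library S1, 0.104 without knockout library 3, and 0.0741, 0.106 and 0.150 without ERβ libraries 1, 2 and 3 (edgeR). DESeq2 gave an adjusted p of 0.0579 and limma-voom 0.0419. The direction was higher in all 15 alternatives run, at 0.20 to 0.37. The plot of fold changes under each setting shows this beside miR-194-5p.

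**Figure D1:**
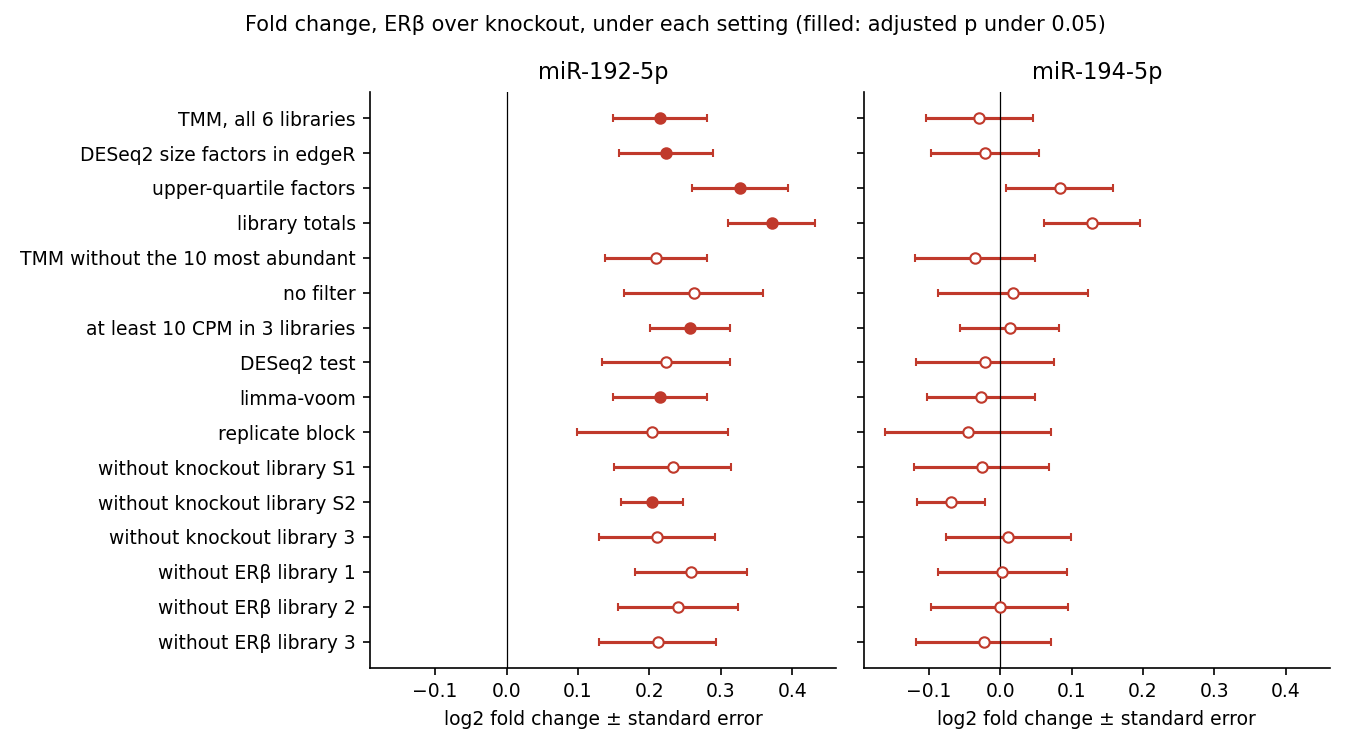
log2 fold change of miR-192-5p (left) and miR-194-5p (right), ERβ over knockout, with the standard error, under each setting on its own line; filled points have an adjusted p under 0.05. miR-192-5p stays right of 0, from 0.20 to 0.37, with the call kept in 6 of 15 alternatives, while miR-194-5p lies on both sides of 0.

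miR-194-5p, the guide strand of both miR-194 hairpins, measured 453, 426 and 476 CPM in knockout libraries S1, S2 and 3 and 442, 447 and 439 CPM in ERβ libraries 1, 2 and 3. The ERβ values lay within the range of the knockout values. The means were 452 ± 25.3 and 443 ± 3.94 CPM, a log2 fold change of -0.03 ± 0.08 (edgeR adjusted p = 0.823), whose sign changed under upper-quartile scaling (0.08) and under library totals (0.13). Without knockout library S2 it was -0.07. It was not called in any of the 15 alternatives.

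miR-215-5p, the guide strand of MIR215 and the seed relative of miR-192-5p, was far scarcer. Its values were 7.82, 6.78 and 9.36 CPM in knockout libraries S1, S2 and 3 and 8.47, 9.23 and 9.47 CPM with ERβ. The groups overlapped, since knockout library 3 lay above ERβ libraries 1 and 2. The log2 fold change was 0.19 ± 0.15 with a 95% interval from -0.16 to 0.54 (edgeR adjusted p = 0.433). It was 0.0884 without knockout library S2 and 0.317 without knockout library 3, the lowest and highest values with a library left out. The 95% interval holds 0 and also the value of miR-192-5p, so at 81.5 to 140 counts per library a change of that size was not detectable.

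Reads could pass between these seed relatives. The deposited counts of miR-192-5p were not whole in 4 libraries, all of the knockout and ERβ library 2, and those of miR-215-5p carried a fraction in the same 4. All other members had whole counts in all 6 libraries. The sources used here do not give the number of reads divided between these names. Since miR-192-5p was 120 to 164 times as abundant, a given number of such reads is a larger part of the miR-215-5p count.

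miR-192-3p, the passenger of MIR192, measured 10.1, 12.4 and 10.7 CPM in knockout libraries S1, S2 and 3 and 13.6, 10.8 and 11.02 CPM with ERβ. The groups overlapped, with ERβ library 1 the highest and knockout library S2 the next. Its log2 fold change was 0.09 ± 0.15 (95% interval -0.25 to 0.42, edgeR adjusted p = 0.719), and 0.17 without library S2. With any 1 library left out it ran from 0.00979 (without ERβ library 1) to 0.183 (without ERβ library 2), and it was 0.0257 without knockout library S1. Both arms are cut from the same hairpin, and the interval of the passenger contains the change of its guide.

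miR-194-3p, the passenger of MIR194-2, had the lowest level of the members, at 0.727, 2.98 and 1.93 CPM in knockout libraries S1, S2 and 3 and 0.991, 2.14 and 1.42 CPM with ERβ. These values rest on 8 to 36 counts per library. The highest and the lowest values were both in knockout libraries, and the log2 fold change of -0.29 ± 0.46 (95% interval -1.33 to 0.75, edgeR adjusted p = 0.704) turned to 0.26 without library S2.

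miR-215-3p was below the level needed for a test, with 0, 4 and 1 counts in knockout libraries S1, S2 and 3 and 2, 5 and 8 with ERβ. The 0 in library S1 allows up to 0.273 CPM. On the same strand within 10 kb of the chromosome 11 hairpins RefSeq lists 1 further hairpin, MIR6750. Its arms miR-6750-5p and miR-6750-3p had between 0 and 2 counts in every library, so the neighbouring hairpin was at the limit of detection.

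**Figure D2:**
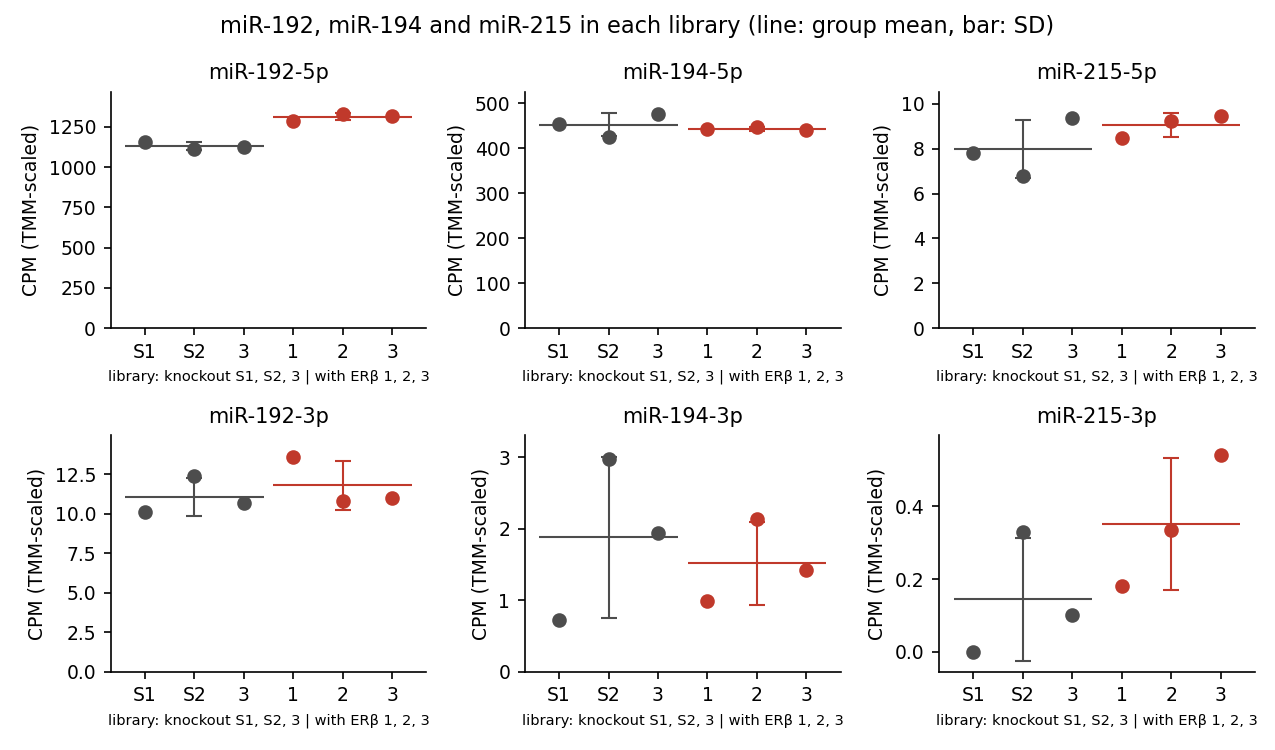
CPM of the 5 members and of miR-215-3p (vertical axes) in each library (horizontal axes), knockout in grey and with ERβ in red, with group means and SD. The ERβ points of miR-192-5p, at 1287 to 1329 CPM, all lie above the knockout points at 1111 to 1156 CPM, and the groups overlap for the other members.

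The order of levels was miR-192-5p, miR-194-5p, miR-192-3p, miR-215-5p and miR-194-3p in the means of both groups. These mature forms are 21 or 22 bases long, so length hardly alters the comparison of CPM, but small RNA libraries capture different sequences with unequal efficiency. In knockout cells miR-192-3p (11.1 ± 1.20 CPM) and miR-215-5p (7.98 ± 1.30 CPM) were the closest neighbours. Their ranges did not overlap there, the lowest miR-192-3p value being 10.1 and the highest miR-215-5p value 9.36 CPM. Among all tested miRNAs miR-192-5p was in place 81 by mean CPM and miR-194-5p in place 114, while miR-192-3p, miR-215-5p and miR-194-3p were in places 373, 410 and 640. The passenger arms miR-192-3p and miR-194-3p rested on at most 163 counts a library.

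**Figure D3:**
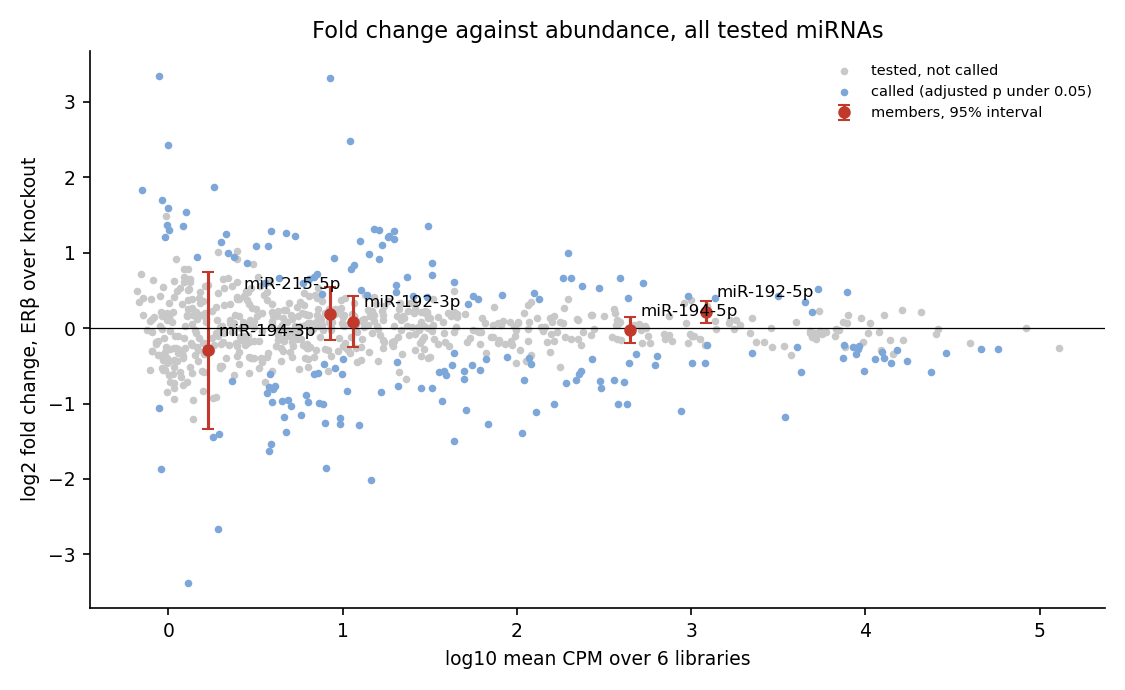
log2 fold change, ERβ over knockout, against the log10 of mean CPM for all 783 tested miRNAs; the 5 members are red with 95% intervals. The intervals widen from miR-192-5p (0.07 to 0.36) to miR-194-3p (-1.33 to 0.75) as abundance falls, and the members lie near the middle of the cloud.

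Passenger reads were rare for miR-192 and miR-194. miR-192-3p made up 0.809 to 1.10% of the reads of the named miR-192 arms, and miR-194-3p 0.160 to 0.694% of those of miR-194. For miR-192 the exact binomial 95% intervals of all 6 libraries, which cover counting error only, overlapped between 0.934 and 0.942%. For miR-194 they did not: knockout library S1 had 0.160% (exact interval 0.0692 to 0.315%) and knockout library S2 0.694% (0.486 to 0.959%), so replicates of the same group differed beyond counting error. Since miR-194-5p sums 2 hairpins and miR-194-3p comes from 1, this is a ratio of names and not of the arms of a hairpin. For miR-215 the share of miR-215-3p was 0 to 5.41%, on 0 to 8 passenger counts per library. Its exact interval was wide, at 2.36 to 10.4% in ERβ library 3.

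Ratios within a library do not depend on how libraries are scaled against each other. miR-192-5p over miR-194-5p was 2.55, 2.61 and 2.36 in knockout libraries S1, S2 and 3 and 2.91, 2.97 and 3.00 in ERβ libraries 1, 2 and 3. Each ERβ library had a higher ratio than each knockout library. The means were 2.51 ± 0.133 and 2.96 ± 0.0437 (SD, n = 3 per group), a difference of 0.24 on the log2 scale (two-sided exact permutation test, p = 0.1, the smallest that 3 against 3 can give; 0.25 after Benjamini-Hochberg adjustment over the 5 ratios compared). With a library left out the difference stayed between 0.20 and 0.27. miR-192-5p alone already separated the groups, so the separation of this ratio is not evidence apart from the call of miR-192-5p. How often ratios of other miRNA pairs separate the groups was not tested. These libraries do not show which of the miR-194 hairpins supplied the reads in the denominator.

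The seed relatives gave no such separation. miR-192-5p over miR-215-5p was 148, 164 and 120 in knockout libraries S1, S2 and 3 and 152, 144 and 139 with ERβ. The groups overlapped, and the log2 difference was 0.03 (exact permutation p = 0.9), turning to -0.09 without knockout library 3. The ratio of guide to passenger overlapped between groups as well, with log2 differences of 0.12 for miR-192 (exact permutation p = 0.5) and 0.13 for miR-194 (p = 0.9), the latter turning to -0.25 without knockout library S2 and -0.07 without ERβ library 1. The miR-192 difference was 0.0313 without knockout library S2 and 0.239 without ERβ library 1.

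Against miR-34a-5p, the main guide of the miR-34 family and the best-known p53-induced miRNA, miR-192-5p was 0.166, 0.159 and 0.163 in knockout libraries S1, S2 and 3. With ERβ it was 0.200, 0.204 and 0.206. The groups were apart here too, by 0.32 on the log2 scale (exact permutation p = 0.1, adjusted 0.25). miR-34a-5p itself went from 6944 ± 45.9 to 6448 ± 61.0 CPM and did not pass (log2 fold change -0.11 ± 0.06, edgeR adjusted p = 0.237), with a positive sign under upper-quartile factors and under library totals (0.05). With TMM scaling its ERβ values all lay below its knockout values, as was so in either direction for 39.8% of all tested miRNAs. The difference of 0.32 therefore takes in the changes of both miRNAs. It reuses the miR-192-5p values and is not evidence apart from them.

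**Figure D4:**
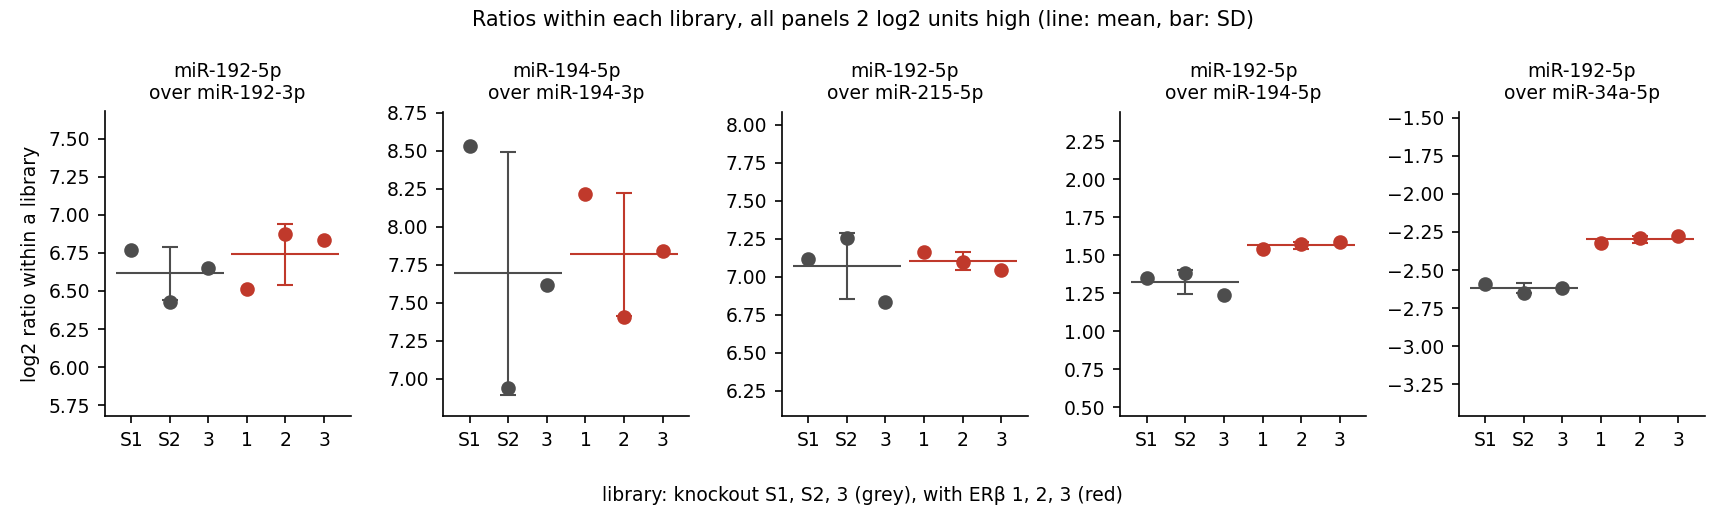
log2 ratio of the paired miRNAs within each library (vertical axes, all of the same height) for knockout (grey) and ERβ (red) libraries, with group means and SD. Only the ratios of miR-192-5p over miR-194-5p and over miR-34a-5p separate the groups, by 0.24 and 0.32, and the other 3 overlap. Both separating ratios reuse the miR-192-5p values, which separate the groups by themselves.

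Other miRNAs reported as p53-linked, either transcribed or processed under its control, were more often called lower than higher. Of 17 on the list 13 were tested, 1 was higher and 5 lower, and 7 were not called, against 9.83% higher and 13.3% lower over all miRNAs. Their median log2 fold change was -0.31, against -0.01 over all tested miRNAs. Their median standard error was 0.09, against 0.17 over all tested miRNAs, so a change of a given size was more readily called in the list. With upper-quartile factors 1 was higher and 3 lower, against 123 and 70 over all 783 tested miRNAs. With library totals 2 were higher and 3 lower, against 146 and 61. Leaving out knockout library S2 gave 2 higher and 6 lower, against 122 and 157 of all 800 then tested. Leaving out any 1 of the ERβ libraries gave 1 higher and 2 lower. Over all miRNAs those settings gave 53 and 58 of 811, 52 and 60 of 808, and 49 and 62 of 800. With a library left out, the count of the list moved in the same direction as that of all miRNAs.

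The single rise was that of miR-1246, a name that can also collect fragments of small nuclear RNA, from 17.3 ± 1.08 to 44.2 ± 2.35 CPM (log2 fold change 1.35 ± 0.10). miR-143-3p, known from smooth muscle and stroma, fell from 8.001 ± 0.646 to 3.60 ± 0.121 CPM (-1.15 ± 0.15). miR-22-3p, a repressor of ERα, fell from 1382 ± 53.4 to 1005.5 ± 35.1 CPM (-0.46 ± 0.07). All 3 were called in every alternative in which they were tested.

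The other falls kept their sign in every alternative but not their call. miR-34c-5p, a seed relative of miR-34a-5p, went from 64.6 ± 8.73 to 45.9 ± 1.47 CPM (-0.49 ± 0.12) and lost its call in 6 of 15 alternatives, at log2 fold changes of -0.60 to -0.33 over all 15. miR-200c-3p (-0.31 ± 0.07) and miR-141-3p (-0.33 ± 0.09), neighbours in a cluster that maintains E-cadherin and also used here as epithelial markers, lost theirs in 6 and 8 of 15, at -0.36 to -0.16 and -0.41 to -0.17. miR-16-5p, the most abundant of the list and a repressor of cyclins, was at 83896 ± 1951 and 83648 ± 3415 CPM and did not pass (-0.00 ± 0.06, edgeR adjusted p = 0.961).

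**Figure D5:**
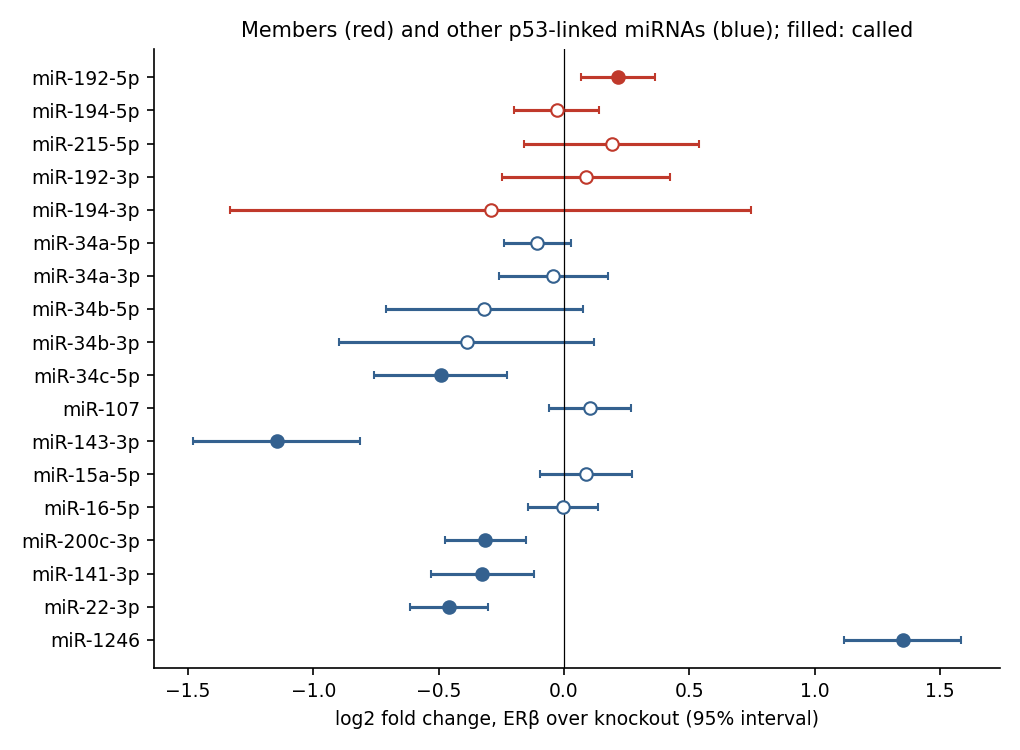
log2 fold change with 95% interval (horizontal axis) for the 5 members in red and the 13 tested miRNAs of the p53-linked list in blue, ERβ over knockout; filled points were called. miR-192-5p (0.21) and miR-1246 (1.35) are the filled points right of 0, and 5 blue points are filled left of 0.

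Liver, kidney and gut miRNAs were measured because miR-192 and miR-194 are abundant in those tissues. Of 9 on that list 4 were tested and 0 called by edgeR, DESeq2 or limma-voom, with 0 at an unadjusted p under 0.05 in edgeR. Over all 783 tested miRNAs 23.1% were called and 269 had an unadjusted p under 0.05, and with 4 miRNAs tested a count of 0 is close to that background. miR-122-5p, the dominant miRNA of hepatocytes, was at 19.1 ± 1.71 CPM in knockout cells and 23.9 ± 4.37 CPM with ERβ (log2 fold change 0.33 ± 0.15). miR-147b-3p, at 19.4 ± 1.23 and 23.0 ± 2.05 CPM (0.25 ± 0.12), and miR-147b-5p, at 10.1 ± 0.0451 and 10.3 ± 0.527 CPM (0.02 ± 0.12), did not pass either. miR-204-5p, a kidney-enriched miRNA and the scarcest of the 4 at 7 to 14 counts per library, had the largest difference and the opposite sign. It was at 1.22 ± 0.131 and 0.800 ± 0.284 CPM (-0.62 ± 0.34, edgeR adjusted p = 0.236). For miR-204-5p every ERβ library lay below every knockout library, and for miR-147b-3p above. Such a separation, in either direction, held for 39.8% of all tested miRNAs. With upper-quartile factors 1 member of the list was higher and with library totals 2 were, against 123 and 146 of all 783 tested miRNAs. miR-192-5p was far above every member of this list in these cells.

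Markers of other cells that the samples could hold are given by their counts, to be read against 9.83% called higher and 13.3% called lower over all tested miRNAs and against the small number tested in each list. Stromal and endothelial markers had 0 higher and 2 lower of 3 tested. Their sums were 21631 to 23187 CPM in knockout and 18137 to 20027 CPM in ERβ libraries. The miR-126 arms made up nearly all of these sums, with means of 15243 CPM for miR-126-3p and 5602 CPM for miR-126-5p. By contrast miR-143-3p had a mean of 5.80 CPM. Muscle markers had 0 higher and 2 lower of 2 tested, with sums of 10.99 to 12.8 and 4.80 to 5.28 CPM. Liver markers (3, of which 1 was tested) and blood markers (7, of which 3 were tested) had 0 calls in edgeR, with sums of 17.4 to 20.6 and 20.2 to 28.7 CPM, and 18.6 to 23.5 and 19.2 to 22.1 CPM. Neural markers had 1 lower of 2 tested, with sums of 4488 to 5643 and 4658 to 4762 CPM. These sums were led by miR-128-3p at a mean of 4813 CPM, while miR-129-5p was at 20.5 CPM. Of the epithelial markers 1 was higher and 4 lower of 8. No listed marker was at 0 in all libraries, but many were close to it. Under 1 CPM on average were 2 of 3 liver, 4 of 7 blood and 3 of 5 muscle markers. So were 2 of 5 stromal and endothelial and 1 of 3 neural markers. The part of the listed markers in the change of miR-192-5p was not tested.

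The pattern of each guide over the 6 libraries was compared with 387 other tested miRNAs of at least 10 mean CPM, by the root mean square difference of log2 CPM after centring each on its own mean. Closest to miR-192-5p were miR-548ay-3p (0.0368), miR-29a-3p (0.0458) and miR-301b-3p (0.0507), against a median of 0.209. None of these passed the test itself, with log2 fold changes of 0.18 ± 0.11, 0.13 ± 0.06 and 0.20 ± 0.10. Closest to miR-194-5p were miR-190b-5p (0.0259), miR-186-5p (0.0311) and miR-181b-5p (0.0345), against a median of 0.185, with log2 fold changes of -0.01 ± 0.08, -0.05 ± 0.06 and 0.03 ± 0.07. All of these values share the same libraries and scaling factors. Neither guide was among the 3 closest of the other, as members were left out of this comparison; their own difference is the ratio given above.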

How the data were processed

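Small RNA libraries of 6 KPL4 samples, 3 per group, were made with a QIAseq miRNA kit, per the labels' protocols. The submitters' processing notes name FastQC, Trim Galore and GRCh38, with no versions; the aligner, the counter and any use of molecular identifiers are not stated. The deposited values are expected counts, 1 row per mature miRNA, and 6.33 to 7.27% of a library's values are fractional. Columns were assigned by name: 2 knockout columns carry the number 1, so these (S1 and S2) are known by group only; 0 columns were left unused.

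Expected counts were rounded and fitted in R 4.3.3 with edgeR 4.0.16: filterByExpr defaults (minimum count 10, total 15), TMM scaling, robust quasi-likelihood test, Benjamini-Hochberg adjustment over 783 miRNAs at 0.05. Standard errors were obtained as the log2 fold change divided by √F. Ratios used log2(CPM + 0.5) and exact two-sided permutation tests (scipy 1.17.1). The test was tried on simulated counts. Alternatives used DESeq2 1.42.0 and limma 3.58.1; figures used matplotlib 3.10.9. Members, lists and tests were chosen with earlier results of these data known. Named miRNAs are the members, miR-215-3p, hairpin neighbours within 10 kb, called members and the 3 most abundant of each list, and the 3 most alike in pattern; miR-34a-5p was fixed as a ratio partner. Hairpins and sequences are from RefSeq (GRCh38.p14) and host genes from GENCODE release 29.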

Additional observations from a re-analysis of the deposited data

How the results depend on the processing

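The count of 181 called miRNAs became 88 with a replicate block and ran from 111 to 279 with a library left out, highest without knockout library S2. With the replicate block, built on the numbers in the column names, of which only 1 and 3 occur in both groups, miR-192-5p had a log2 fold change of 0.20 (edgeR adjusted p = 0.298) and 3 members of the p53-linked list were called in place of 6. Nothing in the labels says that a shared number means a shared culture or day. Deviations of same-numbered libraries correlated across miRNAs at -0.0957, 0.134 and 0.123. Those of differently numbered libraries correlated at -0.103 to 0.0833. The call of miR-192-5p was also lost, with the same direction, when TMM left out the 10 most abundant miRNAs (0.21, adjusted p = 0.0604), without a filter (0.26, 0.0629) and with the DESeq2 test (0.22, 0.0579); with a library left out its value ran from 0.20 to 0.26. Scaling by upper-quartile factors moved the median of all tested miRNAs to 0.0993 and scaling by library totals to 0.141; relative to that median miR-192-5p stayed at 0.23 in both. miR-194-5p changed sign with upper-quartile factors (0.0837), library totals (0.129), no filter (0.0181) and a filter of 10 CPM in 3 libraries (0.0133), and ran from -0.0690 to 0.0114 with a library left out. miR-194-3p ran from -0.677 to 0.257. The log2 ratio differences ran from -0.253 to 0.543 for miR-194-5p over miR-194-3p and from -0.0852 to 0.127 for miR-192-5p over miR-215-5p. The p53-linked list had 3 to 8 called with a library left out, and the liver, kidney and gut list had 1 under upper-quartile scaling and 2 under library totals. miR-192-3p and miR-215-5p kept their direction without a call in all 15 and 14 alternatives in which they were tested; miR-194-3p and miR-215-5p were below the filter of 10 CPM. The causes of these shifts were not tested.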
